A study of Mus musculus with 2 samples.

Results

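The genes described here were 10 of the 32285 genes counted in 2 scRNA-Seq libraries of mouse lung, chosen by name as chaperones of the endoplasmic reticulum (ER) and as genes of the unfolded protein response: *Hspa5*, *Hsp90b1*, *Pdia4*, *Pdia6*, *Dnajb9*, *Xbp1*, *Atf4*, *Herpud1*, *Sdf2l1*, and *Calr*. They were followed in cells that secrete protein for a living, namely alveolar epithelial type 2 (AT2) cells, airway secretory cells, B or plasma cells, and fibroblasts. One library was labelled Cebpa FF and came from floxed Cebpa fl/fl control mice without Cre, and the other was labelled Cebpa KO and came from Cebpa ΔSftpc mice. In the latter, a Cre recombinase that is active only after tamoxifen is made under the *Sftpc* promoter, so *Cebpa*, a transcription factor of AT2 cells, is meant to be lost in AT2 cells and their descendants and to be kept elsewhere. Both groups were adult mice of mixed background that got 5 daily tamoxifen injections of 75 mg/kg, a later weekly round is described for long experiments, and lungs were taken 26 weeks after the first injection. The study counted 3 mice per genotype, but the mice of a genotype entered 1 library together, and no mark in the barcodes separates them. There was therefore no replicate, no difference between the genotypes could be tested, and every interval below is an exact 95% interval that covers counting error only and describes these libraries.

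Proteins bound for secretion are folded in the ER. When unfolded chains build up there, sensors in the ER membrane set off the unfolded protein response. This response slows protein synthesis, raises the factor ATF4, and splices *Xbp1* mRNA into the form that encodes an active factor. It also raises chaperones and the machinery that removes misfolded chains. AT2 cells make surfactant proteins, club cells of the airway make secretoglobins, plasma cells make antibody, and fibroblasts make collagen, and all of these load the ER. ER stress in AT2 cells is a known feature of inherited forms of lung fibrosis caused by misfolded surfactant protein C. The libraries count the 3′ end of each RNA, so they do not tell spliced from unspliced *Xbp1*, and ATF4 is controlled largely at translation, which RNA counts do not show.

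The members fall into roles. *Hspa5* encodes BiP, the Hsp70 of the ER, on chromosome 2 (34771970 to 34777547), and *Hsp90b1* encodes GRP94, the Hsp90 of the ER, on chromosome 10 (86690209 to 86705509). *Calr*, on chromosome 8 (84841850 to 84846934), encodes calreticulin, a lectin chaperone that binds glycoproteins and calcium. *Pdia4*, on chromosome 6 (47796141 to 47813430), and *Pdia6*, on chromosome 12 (17266545 to 17284770), encode protein disulfide isomerases. *Dnajb9*, on chromosome 12 (44205559 to 44210326), and *Sdf2l1*, on chromosome 16 (17130138 to 17132383), encode partners of BiP, and *Herpud1*, on chromosome 8 (94386438 to 94395377), encodes a part of the complex that takes misfolded chains out of the ER. *Xbp1*, on chromosome 11 (5520659 to 5525893), and *Atf4*, on chromosome 15 (80255184 to 80257541), encode the transcription factors. The positions are those of GENCODE for GRCm38, and each symbol matched 1 row of the files.

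Several of these genes carry the same DNA element upstream of their start. The ER stress response element, ERSE (CCAAT, any 9 bases, and CCACG), and its short form, ERSE-II (ATTGG, any 1 base, and CCACG), were searched on both strands in the 250 bases upstream of each RefSeq start (GRCm38.p6), where all 10 members had an entry. ERSE was found in 4 of 10 members and in 0.113% of all 32851 promoters of that length. ERSE-II was found in 1 of 10 members, *Herpud1*, and in 0.0304% of all promoters. The stretches that hold the elements are shown because these members are the ones whose levels are compared below, and capitals mark the element on either strand.
*Hspa5*, chr2:34771960-34772053, plus strand: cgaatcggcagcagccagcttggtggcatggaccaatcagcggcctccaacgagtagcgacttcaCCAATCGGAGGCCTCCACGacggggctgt
*Hsp90b1*, chr10:86705523-86705666, minus strand: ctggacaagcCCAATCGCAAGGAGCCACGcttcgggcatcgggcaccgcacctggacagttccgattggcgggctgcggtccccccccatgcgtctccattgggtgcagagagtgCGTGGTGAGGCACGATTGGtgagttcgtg
*Pdia6*, chr12:17266459-17266519, plus strand: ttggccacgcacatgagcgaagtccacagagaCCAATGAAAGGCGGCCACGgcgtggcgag
*Calr*, chr8:84847044-84847103, minus strand: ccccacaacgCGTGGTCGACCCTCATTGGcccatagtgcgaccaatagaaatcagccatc
*Herpud1*, chr8:94386299-94386397, plus strand: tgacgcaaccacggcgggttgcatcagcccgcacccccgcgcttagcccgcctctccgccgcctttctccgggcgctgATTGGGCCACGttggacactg
*Hsp90b1* held 2 copies, in opposite orientations, and the other promoters held 1. In *Hspa5* the element lies 65 to 47 bases upstream of the start, in *Pdia6* 98 to 80, in *Calr* 162 to 144, and in *Herpud1* the short form lies 52 to 42 bases upstream. The *Herpud1* stretch also holds TGATGCAA, a sequence bound by ATF4 with its partners, on the other strand, 112 to 105 bases upstream. It is present in 0.791% of all promoters and in no other member. The unfolded protein response element UPRE (TGACGTGG) and the C/EBP palindrome (TTGCGCAA) were found in 0 of 10 members, and in 0.563% and 0.164% of all promoters. A match or its absence in this window describes letters and says nothing of binding in these cells.

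The FF library held 11721 barcodes and 69200420 UMIs (unique molecular identifiers, which count each captured RNA once), and the KO library held 13373 barcodes and 64697396 UMIs. After filtering, 11487 and 13238 cells were kept, with a median of 4835 and 2607 UMIs per cell, and 45 barcode sequences occurred in both libraries. Cells were assigned to gates by the share of their UMIs on marker genes of a cell type. Markers of 2 or more types were found in 1.93% of FF and 9.06% of KO cells, which entered no gate. The AT2 gate held 443 FF and 237 KO cells, the airway secretory gate 14 and 11, the B cell gate 44 and 324, and the fibroblast gate 1286 and 962. All 10 AT2 markers were detected in the AT2 gate of both libraries. They were also detected in the endothelial and fibroblast gates, so detection alone does not identify AT2 cells. In the AT2 gate they took a median of 25.4% of a cell's UMIs in FF and 14.6% in KO. The study reported transitional AT2 cells in KO mice, with high *S100a8/a9* and lower *Sftpc*. Here *S100a8* and *S100a9* are neutrophil markers and *Sftpc* is an AT2 marker, so such cells could be left out of the AT2 gate. How many were left out was not counted, and the AT2 values below hold for cells that passed the gate. Only 1 cell, of the KO library, passed the plasma cell gate. KO cells were much shallower in the AT2 gate, with a median of 1584 UMIs against 21055, and in the fibroblast gate, with 1895.5 against 6376. *Cebpa* itself was counted at 155 CPM (counts per 1000000 UMIs of the gate) in FF and 126 CPM in KO AT2 cells, a log2 ratio of -0.30 (-0.53 to -0.08). The sources used here do not say whether the counted 3′ end lies within the deleted part, so this value does not check the deletion, and FF and KO are used below as the names of the libraries.

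Summed, the 10 genes were highest in fibroblasts among the gates with more than 1 cell in both libraries. Single members could peak elsewhere. Among gates with at least 50 cells, *Hspa5* and *Pdia6* were highest in FF fibroblasts, *Hsp90b1* in FF multiciliated cells (1456 CPM), and *Calr* in KO macrophages (649 CPM). The 10 genes together made up 4119 CPM (4076 to 4162) of the FF and 3692 CPM (3635 to 3749) of the KO fibroblast UMIs, against 1950 CPM (1921 to 1979) and 2142 CPM (2068 to 2218) in AT2 cells. B cells held 1729 CPM (1578 to 1889) and 1767 CPM (1708 to 1827). Airway secretory cells were lower, at 741 CPM (629 to 868) and 1048 CPM (965 to 1136), near platelets or megakaryocytes at 611 and 800 CPM. Erythroid cells were lowest in both libraries, at 283 and 742 CPM. Erythroid markers, hemoglobin genes among them, took 874642 CPM of that gate in FF and 642956 CPM in KO. Airway secretory markers took a median of 67.9% and 62.8% of the UMIs of a cell in their gate. Such shares lower the CPM of every other gene, so the low place of these 2 gates does not by itself show little ER. Multiciliated cells, which are not counted as secretory, came second in FF at 3378 CPM and above all secretory gates but fibroblasts and the plasma cell in KO at 3263 CPM. Among gates with at least 10 cells in each library, macrophages differed by the most CPM, at 1866 CPM in 25 FF cells and 3507 CPM in 714 KO cells.

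**Figure D1:**
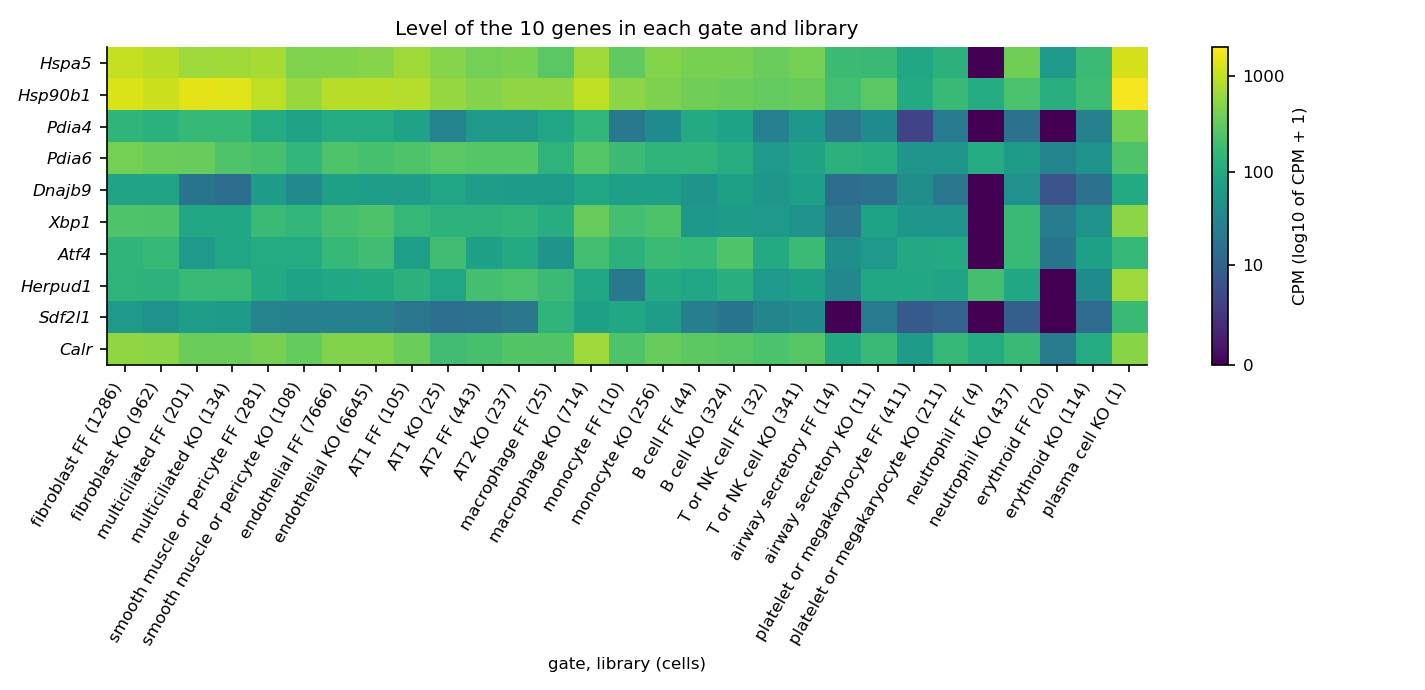
Level of each of the 10 genes (rows) in each gate and library (columns, with the number of cells), as CPM of all UMIs of the gate on a log10 colour scale of CPM plus 1. Columns are ordered by the summed level in FF, from fibroblasts at 4119 CPM to erythroid cells at 283 CPM, and the single plasma cell of the KO library stands at the right with *Hsp90b1* at 1823 CPM.

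In AT2 cells, B cells, and fibroblasts, *Hsp90b1* and *Hspa5* were the most abundant members in both libraries. In fibroblasts *Hsp90b1* stood at 1296 CPM in FF and 1136 CPM in KO, and *Hspa5* at 1035 and 878 CPM. In AT2 cells they stood at 487 and 572 CPM and at 413 and 428 CPM, below fibroblasts in both libraries. Levels per 3′ UMI do not grow with the length of the RNA, but how well each RNA was captured was not checked. The order of genes is therefore an order of counted UMIs. *Calr* followed in fibroblasts, at 564 and 531 CPM, while in AT2 cells it stood at 220 and 259 CPM, below *Pdia6*. The disulfide isomerase *Pdia6* was at 409 and 351 CPM in fibroblasts and 269 and 266 CPM in AT2 cells, while *Pdia4* was lower in both, at 142 and 127 CPM and at 58.6 and 60.6 CPM. *Sdf2l1* was the lowest member in AT2 cells (16.4 and 19.5 CPM), and in KO fibroblasts it stood at 47.0 CPM.

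*Herpud1* had a different distribution from the chaperones. It was higher in AT2 cells, at 207 CPM (198 to 217) in FF and 227 CPM (203 to 252) in KO, than in fibroblasts, at 140 CPM (132 to 148) and 135 CPM (125 to 147). Its level in KO AT2 cells was the highest of any gate with at least 50 cells. Among these gates *Atf4* was highest in KO B cells, at 245 CPM, and lowest in FF multiciliated cells, at 57.9 CPM. *Xbp1* was highest in KO macrophages, at 344 CPM. It stood at 57.0 and 63.0 CPM in B cells, below AT2 cells (135 and 143 CPM) and fibroblasts (249 and 239 CPM). *Dnajb9* was low in multiciliated cells, at 18.3 and 14.6 CPM, where *Hsp90b1* reached 1456 and 1391 CPM.

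The members thus fell into a group that moved together across cell types and a group that did not. Over the 19 combinations of gate and library with at least 50 cells, the log2 level (CPM plus 10) of *Calr* correlated with the mean of the other members at r = 0.94, that of *Hspa5* at 0.91, *Pdia6* at 0.88, *Hsp90b1* at 0.87, and *Pdia4* at 0.83. *Xbp1* (0.74) and *Sdf2l1* (0.70) came next, and *Dnajb9* (0.47), *Herpud1* (0.40), and *Atf4* (0.20) were least like the rest. The 4 members with ERSE in the window shown above were among the 5 with the highest values. *Pdia4*, also among these 5, held neither form of the element, and *Herpud1*, with ERSE-II, was among those least like the rest. A link between the element and these correlations was not tested. Points of the same library share its depth and its free RNA, so these values describe the libraries.

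The 10 other genes most like the mean profile of the members, of 11810 compared over the same 19 points, were *Stt3a* (r = 0.954), *Sec31a* (0.952), *Ganab* (0.942), *Arcn1* (0.939), *Manf* (0.936), *Canx* (0.930), *Zfp445* (0.928), *Hyou1* (0.926), *Srp72* (0.925), and *Pdia3* (0.924). *Stt3a* encodes the catalytic subunit of oligosaccharyltransferase, *Ganab* trims the glycans of new glycoproteins, and *Canx* and *Pdia3* encode calnexin and its disulfide isomerase partner. *Hyou1* encodes a large chaperone of the ER and *Manf* an ER protein that binds BiP. *Sec31a* and *Arcn1* encode coat proteins of the vesicles that leave and return to the ER, and *Srp72* a subunit of the signal recognition particle.

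In AT2 cells, the cells in which *Cebpa* is targeted, the members were close to equal in the 2 libraries when summed over the gate. None of 10 differed by 2-fold, where 3.74% of the 9673 genes with at least 50 UMIs in the gate were 2-fold or more higher in KO and 0.972% were 2-fold or more lower. *Hspa5* was at 413 CPM (400 to 427) in FF and 428 CPM (395 to 462) in KO, a log2 ratio of 0.05 (-0.07 to 0.17). *Pdia6* (-0.02), *Pdia4* (0.05), *Dnajb9* (-0.05), *Xbp1* (0.09), *Herpud1* (0.13), and *Sdf2l1* (0.25) also had intervals that spanned 0. The interval lay above 0 for *Hsp90b1* (0.23, 0.12 to 0.34), *Calr* (0.24, 0.08 to 0.40), and *Atf4* (0.42, 0.15 to 0.67), and below 0 for no member. In the same gate it lay above 0 for 14.9% of all genes tested and below 0 for 3.77%. The median log2 ratio of the 10 members was 0.11, and that of all genes tested was 0.12. Of these 3 genes, *Atf4* alone had an interval above 0 with marker limits 2 times as high (0.36) or with mitochondrial, ribosomal protein, and AT2 marker genes, among others, left out of the total (0.28), and *Pdia6* then lay below 0 (-0.20 and -0.16). *Hsp90b1* alone had one above 0 among cells with at least 3000 UMIs (0.17) or after thinning (0.54).

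**Figure D2:**
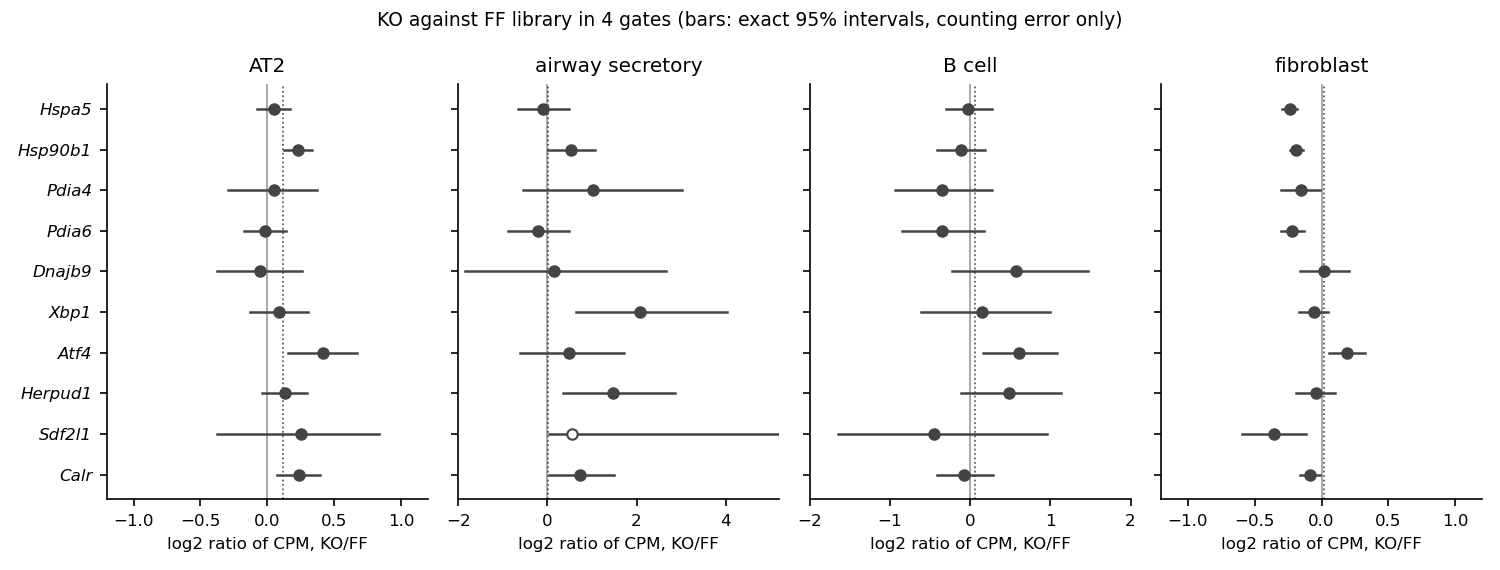
Log2 ratio of CPM, KO over FF library, for each of the 10 genes in 4 gates, with exact 95% intervals that cover counting error only. The solid line is 0, the dotted line is the median of all genes with at least 50 UMIs in the gate, the open point was computed against 3 counts because no UMI was counted in FF, and the scales differ between panels. In AT2 cells the points lie around the dotted line at 0.12, and in fibroblasts 8 of 10 points lie below 0.

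The AT2 difference in *Hsp90b1* and *Calr* varied between classes of depth. Shallow KO cells of the gate, with 1000 to 2000 UMIs, held 5459 CPM of endothelial and 2577 CPM of neutrophil markers, against 876 and 145 CPM in KO cells with 20000 UMIs or more. Over the whole gate the neutrophil markers stood at 39.8 CPM in FF, with 7 of 11 detected, and 603 CPM in KO, with 10 of 11 detected, and all 12 endothelial markers were detected in both libraries, at 1275 and 1737 CPM. Endothelial cells themselves had more *Hsp90b1* (881 CPM in each library) and *Calr* (469 and 477 CPM) than AT2 cells. Among the deepest cells, 257 of FF and 38 of KO, *Hsp90b1* was at 487 and 509 CPM, a log2 ratio of 0.06 (-0.08 to 0.20), and *Calr* at 219 and 231 CPM, 0.08 (-0.13 to 0.29). *Atf4* was at 76.9 and 91.5 CPM there, 0.25 (-0.09 to 0.58), and *Hspa5* at 408 and 448 CPM, 0.14 (-0.01 to 0.28). Among cells with 10000 to 20000 UMIs, 135 of FF and 11 of KO, *Hsp90b1* was at 491 and 768 CPM, 0.64 (0.38 to 0.90), *Calr* was at 0.50 (0.08 to 0.90), and the 10 members together were at 0.31 (0.16 to 0.45). The markers of these cells were at 974 CPM in FF and 695 CPM in KO for endothelial cells and at 38.8 and 157 CPM for neutrophils. The summed level of the 10 members in the deepest cells was 1951 CPM in FF and 2063 CPM in KO, a log2 ratio of 0.08 (0.01 to 0.15). With 1000 to 2000 UMIs (9 FF and 94 KO cells) the 10 were at 0.79 (0.12 to 1.54). With 2000 to 5000 (16 and 42 cells) they were at 0.84 (0.44 to 1.27), and with 5000 to 10000 (25 and 5 cells) at -0.17 (-0.59 to 0.22). The sums weigh cells by their UMIs: those 94 KO cells held 130795 UMIs, against 972731 in the 38 deepest. The part of cells of other types or free RNA in the ratios of the whole gate was not tested.

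Shares of cells gave the same picture for *Hspa5* and a wider gap for *Hsp90b1*. With every AT2 cell thinned to 1000 UMIs, which left out 1 FF and 47 KO cells, a UMI of *Hspa5* was found in 33.0% of FF and 31.6% of KO cells, and unthinned in 94.4% of FF and 58.2% of KO cells. A UMI of *Hsp90b1* was found in 33.0% (28.7 to 37.6) of FF and 51.1% (43.7 to 58.4) of KO cells. The share of erythroid cells with a UMI after the same thinning was 0% and 19.3% for *Hspa5* and 5.26% and 21.6% for *Hsp90b1* in FF and KO (19 and 88 cells). Erythroid markers took a median of 94.1% of the UMIs of these cells in FF and 34.8% in KO. Few UMIs of other genes were thus left in FF, and these shares cannot serve as a background for AT2 cells. The median AT2 cell held 2 UMIs of the 10 genes per 1000 in both libraries, and 17.9% of FF and 12.1% of KO cells held none.

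The wider pathway in AT2 cells was likewise close to the background of all genes. None of the 23 other genes of ER folding and disulfide formation, all of which could be compared, differed by 2-fold. Their median log2 ratio was 0.06, and *Canx* (216 to 261 CPM, 0.27, 0.11 to 0.43) was the gene whose interval left out 0. In ER-associated degradation the median was 0.16 over 14 of 15 genes, with the lectins *Os9* (-0.41, -0.69 to -0.15) and *Erlec1* (-0.49, -0.96 to -0.05) lower and *Sel1l* (0.29, 0.03 to 0.54), a subunit of the degradation complex, higher in KO. In translocation into the ER the median was 0.08 over 21 of 21 genes, with *Ssr3* (0.52) and *Sec11c* (0.34) higher and *Ssr2* (-0.35) lower. Among sensors and factors of the response the median was 0.17 over 11 of 13 genes, and *Eif2s1*, whose product is phosphorylated to slow translation, was higher at 0.58 (0.16 to 0.98).

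Genes downstream of ATF4 and CHOP were the list of the pathway with the highest median in AT2 cells. The median was 0.34 over 16 of 22 genes that could be compared. It was not particular to AT2 cells. The median was 0.36 over 21 genes in endothelial cells. The interval there lay above 0 for 17 and below 0 for 2, against 30.4% and 23.9% of all genes in that gate. The median was 0.29 in B cells and in smooth muscle cells or pericytes, but -0.06 in multiciliated cells and -0.04 in fibroblasts. In AT2 cells the interval lay above 0 for 5 and below 0 for 1, against 14.9% and 3.77% of all genes. In KO 2 were 2-fold or more higher, against 3.74% of all genes. These were *Phgdh*, the first enzyme of serine synthesis, with 35 UMIs in FF and 18 in KO (3.91 and 12.1 CPM, 1.63, 0.73 to 2.49), and *Slc7a5*, an amino acid transporter, with 49 and 20 UMIs (5.47 and 13.5 CPM, 1.30, 0.47 to 2.08). *Cebpg*, a partner of ATF4, rested on more counts, 66.7 CPM in FF and 121 CPM in KO (0.85, 0.60 to 1.10). Immediate early genes, which respond to handling of cells, stood at a median of 0.45 in the same gate, with 12 of 13 intervals above 0, among them *Nr4a1* (1.11), *Fosb* (0.98), and *Ier3* (0.62), and the part of handling was not tested. Cytosolic heat shock genes stood at a median of 0.13, with *Hspb1* (0.26), *Dnaja1* (0.23), and *Hspa8* (0.10) the named genes.

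In fibroblasts, the members leaned the other way. The ratio of KO to FF was below 0 for 8 of 10 members, none by 2-fold, where 3.62% of the 11471 genes tested were 2-fold or more higher and 0.889% were 2-fold or more lower. *Hspa5* was at 1035 CPM (1014 to 1057) in FF and 878 CPM (850 to 906) in KO, a log2 ratio of -0.24 (-0.29 to -0.18). *Hsp90b1* was at -0.19 (-0.24 to -0.14), *Pdia6* at -0.22 (-0.31 to -0.13), and *Sdf2l1* at -0.35 (-0.59 to -0.12). The interval also lay below 0 for *Pdia4* (-0.16) and *Calr* (-0.09), which makes 6 of 10, against 14.1% of all genes. *Atf4* was the 1 member whose interval lay above 0, at 143 CPM in FF and 163 CPM in KO (0.19, 0.06 to 0.33), where that of 18.3% of all genes did. *Xbp1* (-0.06), *Herpud1* (-0.04), and *Dnajb9* (0.02) had intervals that spanned 0. The median of the 10 was -0.12 and that of all genes tested 0.02.

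The difference between KO and FF fibroblasts varied with the depth of the cells. In FF the 10 genes together were at 2057 CPM in cells with 1000 to 2000 UMIs and at 5478 CPM in cells with 20000 or more, and in KO at 3036 and 4076 CPM. The shallowest cells, with under 1000 UMIs, did not extend this order in FF: 81 FF cells were at 3182 CPM (2750 to 3662) and 127 KO cells at 3031 CPM. Among cells with 1000 to 2000 UMIs, 170 of FF and 372 of KO, the KO level was the higher one, at a log2 ratio of 0.56 (0.42 to 0.71). Among cells with 2000 to 5000 UMIs the levels were equal, at 3064 and 3074 CPM. From there on KO was lower, at -0.09 (-0.14 to -0.03) between 5000 and 10000 UMIs, -0.18 (-0.22 to -0.14) between 10000 and 20000, and -0.43 (-0.53 to -0.32) in the 12 FF and 14 KO cells above that. *Hspa5* was higher in KO among cells with 1000 to 2000 UMIs, at 473 CPM in FF and 674 CPM in KO (0.51, 0.21 to 0.82). It was lower in KO in every class from 2000 UMIs up. In the 267 FF and 149 KO cells with 10000 to 20000 UMIs it stood at 1133 and 980 CPM (-0.21, -0.29 to -0.13). *Hsp90b1* (-0.19) and *Calr* (-0.23) were lower in the same cells, and *Atf4* was at 0.07 (-0.14 to 0.28).

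**Figure D3:**
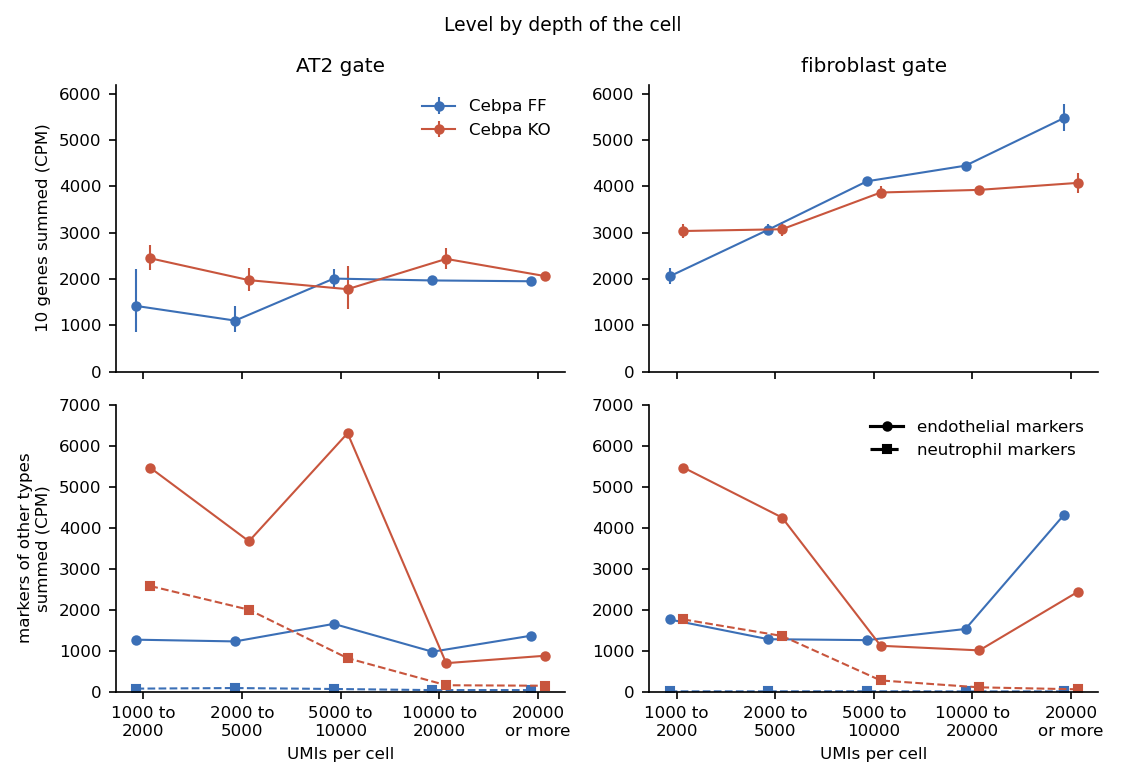
Upper panels: summed CPM of the 10 genes in AT2 and fibroblast gates by the depth of the cells, with exact Poisson 95% intervals. Lower panels: summed CPM of endothelial and neutrophil marker genes in the same cells. In fibroblasts the KO library is higher at 1000 to 2000 UMIs (3036 against 2057 CPM) and lower at 20000 or more (4076 against 5478 CPM), and the shallow KO cells hold 5465 CPM of endothelial markers.

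Markers of other cells moved with these classes of depth. KO fibroblasts with 1000 to 2000 UMIs held 5465 CPM of endothelial and 1762 CPM of neutrophil markers, against 1760 and 8.02 CPM in FF. At 10000 to 20000 UMIs they held 1007 and 106 CPM, against 1529 and 6.38 CPM. Over the whole gate the neutrophil markers stood at 8.10 CPM in FF, with 6 of 11 detected, and 530 CPM in KO, with 11 of 11 detected, and their part in the ratios was not tested.

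The wider pathway in fibroblasts held genes on both sides. Among the 23 other genes of ER folding and disulfide formation the interval lay below 0 for 7 and above 0 for 1, with a median of -0.06. *Creld2*, an ER stress gene with isomerase activity, was at 65.6 and 40.3 CPM (-0.70, -0.96 to -0.46), *Pdia3* at 693 and 547 CPM (-0.34, -0.41 to -0.27), and *Erp29* at 92.3 and 120 CPM (0.38, 0.22 to 0.54). Among 21 genes of translocation 9 intervals lay below 0 and 2 above, and *Sec63* (-0.35) was lower while *Spcs3* (0.39) and *Sec61a1* (0.31) were higher in KO. In degradation, *Os9* was lower (-0.53, -0.67 to -0.39), as it was in AT2 cells, while *Edem1* (0.49) and *Syvn1* (0.43) were higher.

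The collagen partner *Serpinh1*, the HSP47 chaperone, was at 744 and 700 CPM (-0.09, -0.15 to -0.02), the prolyl hydroxylase *P4ha1* at -0.27, and the lysyl hydroxylase *Plod1* at 0.56. Sensors and factors had a median of 0.01, with *Eif2s1* (0.34) and *Creb3* (0.33) higher. ATF4 and CHOP targets had a median of -0.04, with 5 intervals above 0 and 5 below, and with *Slc7a5* (0.94, on 28 and 27 UMIs) and *Asns* (0.84, on 29 and 26 UMIs) higher and *Stc2* at -0.63. Cytosolic heat shock genes had a median of 0.16, led by *Hsph1* (0.47), *Hspa8* (0.41), and *Dnaja1* (0.40). Immediate early genes had a median of -0.11, with 8 of 13 intervals below 0 and 3 above, and with *Ier3* (0.53) and *Fosb* (0.32) higher and *Ier2* (-0.31) lower.

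B cells showed no member at 2-fold between the libraries, where 6.23% of 5346 genes were 2-fold or more higher in KO and 0.823% were 2-fold or more lower. *Hspa5* was at 421 CPM (348 to 504) in 44 FF cells and 414 CPM (386 to 444) in 324 KO cells. *Atf4* was at 160 CPM (117 to 215) and 245 CPM (223 to 268), a log2 ratio of 0.61 (0.17 to 1.08), and was the 1 member whose interval left out 0, where that of 5.99% of all genes lay above 0 and that of 4.15% below. *Dnajb9* (0.57, -0.23 to 1.47) and *Herpud1* (0.48, -0.12 to 1.14) were next in size, and *Pdia4* (-0.36) and *Pdia6* (-0.36) lay on the other side. The median of the 10 members was -0.05 and that of all genes tested 0.06. *Ppp1r15a*, the phosphatase subunit that ends the translation block, was at 160 and 295 CPM (0.88, 0.44 to 1.35), and *Cebpb* at 110 and 182 CPM (0.72, 0.19 to 1.30). *Tmx1*, with 0 UMIs in FF and 74 in KO, had a log2 ratio of 1.85 with the FF count set to 3, and an exact interval that starts at 1.52. Of other lists, *Sec61a1* (-0.79), *Hspd1* (-0.61), *Dnaja1* (0.52), and *Hsp90ab1* (-0.28) had intervals off 0, and immediate early genes had a median of 0.47, with *Ier3* (2.17), *Fosb* (0.82), and *Dusp1* (0.68).

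The single plasma cell had the highest summed level of any gate. Its 57594 UMIs held 337 of the 10 genes, 5851 CPM (5243 to 6511), and *Jchain*, the chain that joins antibody molecules, made up 25159 CPM. *Hsp90b1* was at 1823 CPM (1491 to 2207), *Hspa5* at 1233 CPM (963 to 1555), *Herpud1* at 660 CPM (467 to 906), *Xbp1* at 538 CPM (366 to 764), and *Pdia4* at 399 CPM (253 to 599). *Xbp1* is needed for the secretory state of plasma cells, and its level in KO B cells was 63.0 CPM (52.3 to 75.3). *Atf4*, at 156 CPM (71.4 to 297), was not higher than in KO B cells. A single cell of 1 library shows what that cell held and no more, and no plasma cell was found in FF.

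In airway secretory cells, 14 in FF and 11 in KO, *Scgb1a1*, the secretoglobin of club cells, took up a large share of the UMIs. Among the cells with at least 5000 UMIs in which *Scgb1a1* made up 20% or more, it took 33.2% to 85.2% of the UMIs in 11 FF cells and 24.7% to 68.9% in 6 KO cells. The 10 members made up 0.00766% to 0.0710% of these cells in FF, with a median of 0.0268%, and 0.0298% to 0.157% in KO, with a median of 0.0675%. The other cell of each library had less *Scgb1a1*, 6.48% in FF and 9.84% in KO, and more of the members, 0.334% and 0.193%. That FF cell alone had *Hspa5* at 1164 CPM and *Calr* at 505 CPM, while in the other 11 *Hspa5* did not pass 127 CPM.

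**Figure D4:**
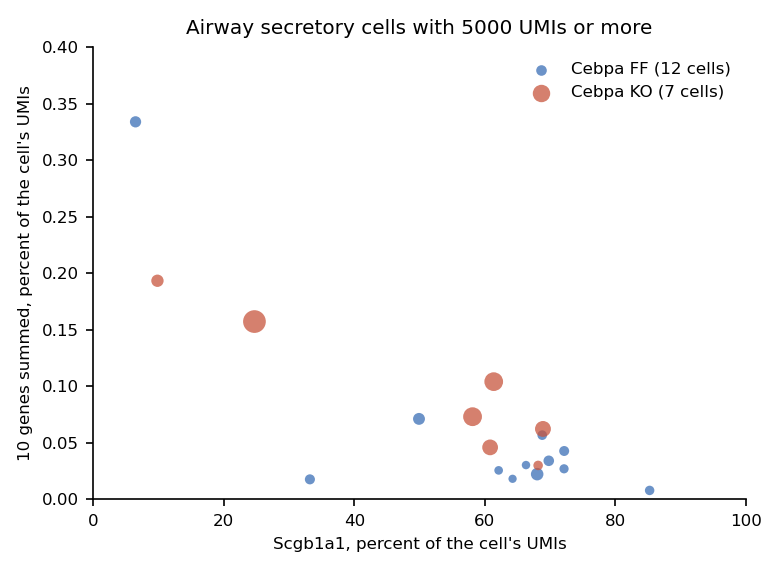
Each point is 1 airway secretory cell with at least 5000 UMIs, with the share of its UMIs on *Scgb1a1* across and the share on the 10 genes together upward, in percent, and point area grows with the cell's UMIs. The 12 FF and 7 KO cells run from a cell at 6.48% *Scgb1a1* and 0.334% members to a cell at 85.2% and 0.00766%.

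The ratios of this gate rest on few cells. *Hspa5* was at 183 CPM in FF and 171 CPM in KO (-0.10, -0.66 to 0.48) and *Pdia6* at 130 and 112 CPM (-0.22, -0.89 to 0.49). The FF level of *Hspa5*, 38 UMIs in all, rests largely on the cell with 6.48% *Scgb1a1*. That cell, of 25765 UMIs, held *Hspa5* at 1164, *Hsp90b1* at 970, *Pdia6* at 543, and *Calr* at 505 CPM. It is not the deepest cell of the gate, and ratios without it were not computed. The intervals do not cover such spread between cells. *Xbp1* had 4 UMIs in FF and 46 in KO (2.08, 0.63 to 4.02) and *Herpud1* had 7 and 53 (1.48, 0.34 to 2.86), both above 2-fold, as were 17.9% of the 956 genes tested, while 3.77% were 2-fold or more lower. *Pdia4* (4 and 22 UMIs, 1.02, -0.54 to 3.02) was also above 2-fold, with too few counts for the comparison with all genes. *Calr* (0.74) and *Hsp90b1* (0.53, 0.02 to 1.06) also had intervals above 0, as did 22.7% of genes, against 18.9% below. *Sdf2l1* had 0 UMIs in FF, where 3 counts would make 14.4 CPM, and 12 in KO, which is 1.48-fold the level of those 3 counts, with an exact interval of the log2 ratio that starts at 0.04. *Dnajb9*, with 3 and 9 UMIs, was at 0.15 (-1.86 to 2.67), and *Atf4*, with 9 and 34, at 0.48 (-0.61 to 1.72). The deepest cell held 17.5% of the FF and 28.5% of the KO UMIs of the gate, and without both deepest cells no member had an interval above 0. Counted as the mean of the cells' own CPM, *Xbp1* was at -1.10 and *Herpud1* at -0.71. In that mean the shallowest FF cell, of 848 UMIs, stood at 1179 CPM for each of these genes, on a single UMI each.

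Other genes of the airway gate were summed over the same few cells, and how far single cells carry their ratios was not tested. The immediate early genes *Fos* (3 and 257 UMIs, 4.98), *Egr1* (2 and 173 UMIs), and *Jun* (9 and 290 UMIs, 3.57) were far higher in KO, and all 9 genes of that list that could be compared had intervals above 0. *P4hb*, the main protein disulfide isomerase, was at 77.0 and 155 CPM, with an interval of the log2 ratio of 0.22 to 1.87. *Spcs2* (0.84), *Nfe2l2* (0.77), and *Hspb1* (1.11) were higher, and *Srp14* (-1.09), *Dad1* (-0.98), *Nupr1* (-0.80), *Cebpb* (-0.62), *Hspd1* (-0.87), and *Hspe1* (-0.68) lower in KO.

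*Atf4* was higher in KO in the sums of most gates. In the 10 gates with at least 10 UMIs of both *Atf4* and *Hspa5* in FF, the *Atf4* ratio lay above 0 in 10 and its interval lay above 0 in 7, with smooth muscle cells or pericytes at 0.00 (-0.42 to 0.41). It was 0.27 (0.21 to 0.32) in endothelial cells, where 30.4% of 13653 genes had intervals above 0, and 0.58 (0.18 to 0.97) in multiciliated cells, where 6.51% of 8668 did. It was 0.80 (0.22 to 1.43) in T or NK cells, where 4.97% of 5856 did. In AT1 cells it was 1.43 (0.38 to 2.39), on 33 and 13 UMIs, which was too few for the comparison with all genes. The 25 KO cells of the AT1 gate held 4837 CPM of endothelial markers against 1062 CPM in FF, and 1 of them held 24.8% of the UMIs. Their *Atf4* level of 193 CPM was close to the 194 CPM of KO endothelial cells, and the part of such cells was not tested. The *Atf4* ratio also varied with depth. In fibroblasts it was 1.51 among cells with 1000 to 2000 UMIs, 0.83 with 2000 to 5000, and -0.16 (-0.46 to 0.13) among 508 FF and 116 KO cells with 5000 to 10000. In AT2 cells with 10000 to 20000 UMIs it was -0.03 (-0.97 to 0.78). Endothelial, multiciliated, and T or NK cells are not the target of the *Sftpc* promoter. *Hspa5* lay above 0 in 6 of the 10 gates. Its interval lay above 0 in 2, endothelial cells and monocytes, as did 30.4% and 3.34% of all genes. It lay below 0 in 2, fibroblasts and smooth muscle cells or pericytes. *Pdia6* lay above 0 in 3 of 10, with intervals below 0 in 4. These were multiciliated cells, fibroblasts, smooth muscle cells or pericytes, and endothelial cells, where 8.99%, 14.1%, 20.3%, and 23.9% of all genes had intervals below 0. Cells of 1 library share its free RNA, its preparation, and its mice, so gates are not replicates, and the genotype cannot be told apart from the library.

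**Figure D5:**
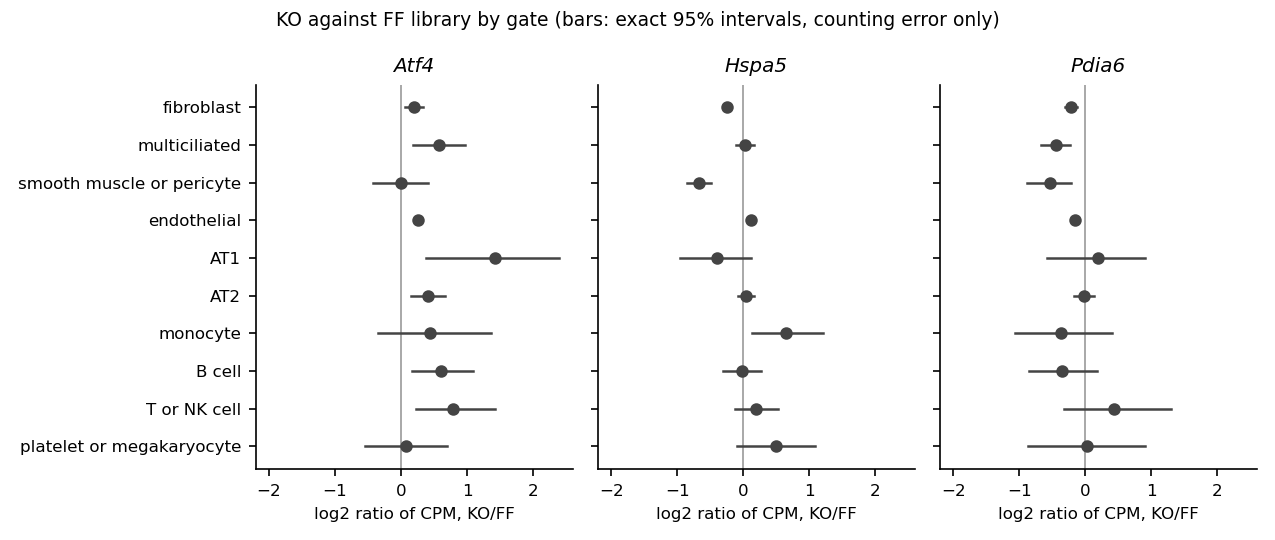
Log2 ratio of CPM, KO over FF library, of *Atf4*, *Hspa5*, and *Pdia6* in the 10 gates with at least 10 UMIs of *Atf4* and *Hspa5* in FF, with exact 95% intervals for counting error. The *Atf4* points run from 0.00 in smooth muscle cells or pericytes to 1.43 in AT1 cells, while *Hspa5* runs from -0.66 to 0.64.

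In smooth muscle cells or pericytes, the interval lay below 0 for 5 of 10 members. The median log2 ratio of the 10 members was -0.39 and that of all genes tested -0.15. *Dnajb9*, on 93 and 24 UMIs, was at -0.85 (-1.56 to -0.19), and *Calr* at -0.35 (-0.58 to -0.13). *Hspa5* was at 733 CPM in 281 FF cells and 463 CPM in 108 KO cells (-0.66, -0.85 to -0.48), *Hsp90b1* at 953 and 610 CPM (-0.65, -0.81 to -0.48), and *Pdia6* at 221 and 152 CPM (-0.54, -0.88 to -0.22). In that gate 20.3% of 6264 genes had intervals below 0, many of them on fewer counts and so with wider intervals. By size of the ratio, 10.5% of these genes lay below *Dnajb9* and 34.0% below *Calr*, with the rest of the 5 between. In endothelial cells, the largest gate with 7666 and 6645 cells, *Hsp90b1* was at 881 CPM in each (0.00, -0.02 to 0.02) and *Calr* at 469 and 477 CPM (0.02). The interval lay above 0 for *Hspa5* (466 and 505 CPM, 0.11, 0.08 to 0.15), *Xbp1* (0.17), *Atf4* (0.27), and *Herpud1* (0.11). It lay below 0 for *Pdia6* (-0.16) and *Dnajb9* (-0.08). Of all genes tested there, 30.4% had intervals above 0 and 23.9% below. The median was 0.01 for the 10 members and 0.02 for all genes.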

How the data were processed

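The authors deposited raw UMI counts for every gene in every barcode called as a cell, from 3′ libraries aligned with Cell Ranger to mm10, with no normalization. The submitters' notes and the study's methods name version 6.1.1, and the file header names 5.0.0. The labels name a sort of live cells, the methods refer back to an earlier harvest of the lungs without naming a sort for these libraries, and such a step could change which types were captured.

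Barcodes under 200 genes or above 20% mitochondrial UMIs were dropped, and no doublet caller was run. A cell entered a gate when at least 3 markers were detected and their share of its UMIs reached a limit: 5% for AT2, airway secretory, and plasma cells, 1% for fibroblasts, and 0.5% for B cells. Cells that passed 2 gates were left out. The limits were set from the marker genes without the members. Counts were summed per gate and library and divided by all UMIs of the gate (CPM), with exact Poisson intervals. Ratios have exact Clopper-Pearson intervals conditional on the sum, a sum of 0 was set to 3 counts, and no ratio was given where both sums were at most 3. Single genes were named by size among those of each list with at least 50 UMIs and an interval off 0, at most 3 per gate. Ratios were compared with all genes with at least 50 UMIs in the gate. The interval code was tested on simulated data with counting error only, so that test checks the code and says nothing of spread between cells or mice. Promoter sequences are from RefSeq. Python 3.11.15 was used with numpy 2.4.6, pandas 2.3.3, scipy 1.17.1, and matplotlib 3.10.9. The members and lists were chosen with earlier results of these data known.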

Additional observations from a re-analysis of the deposited data

Results flagged for a closer look

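*Hsp90b1*, *Calr*, and *Sdf2l1* had intervals on opposite sides of 0 in different gates of the same pair of libraries. The log2 ratio of KO to FF for *Hsp90b1* was 0.23 in AT2 cells and 0.53 in airway secretory cells, and -0.19 in fibroblasts. For *Calr* it was 0.24 in AT2 cells and 0.74 in airway secretory cells, and -0.087 in fibroblasts. For *Sdf2l1* it was 0.56 in airway secretory cells, on 0 and 12 UMIs with the 0 set to 3 counts, and -0.35 in fibroblasts. Among all genes tested, intervals lay above 0 for 14.9% in AT2 and 22.7% in airway secretory cells, and below 0 for 14.1% in fibroblasts. The share of all genes with intervals on opposite sides was not counted. Without the deepest cell of each library, no member had an interval above 0 in airway secretory cells. The difference between gates was not tested, since each genotype was 1 library.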

How the results depend on the processing

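With 1 library per genotype, no value has a replicate check, and mice, preparation, and genotype cannot be told apart. No paired analysis was possible because each genotype had 1 library and the labels carry no replicate numbers. Over the alternatives the median log2 ratio of the 10 members ran from -0.03 to 0.66 in AT2 cells and -0.15 to 0.18 in fibroblasts. It ran from -0.37 to 0.21 in B cells and -0.0080 to 0.92 in airway secretory cells. A band was set from the median of the members' lower interval ends to the median of their upper ends. This band is not an interval of the median, so it is a loose check. The median stayed within it under 13 of 14 alternatives in AT2 cells, 11 of 12 in fibroblasts, 12 of 12 in B cells, and 10 of 10 in airway secretory cells. The exceptions were cells with 1000 to 5000 UMIs only, an alternative chosen after seeing the data, as was leaving out the deepest cell of each library: the median was then 0.66 in AT2 cells (25 and 136 cells) and 0.18 in fibroblasts (418 and 556 cells), where *Hsp90b1* (0.051), *Pdia4* (0.15), and *Calr* (0.30) turned positive. With marker limits 2 times as high, *Calr* in AT2 cells was at -0.0051 and *Hsp90b1* in airway secretory cells at -0.16. With cells that pass 2 gates kept, *Hsp90b1* (-0.55) and *Calr* (-0.038) turned negative in airway secretory cells. Without the deepest cells *Sdf2l1* was at -0.23 there, on 0 UMIs in FF. As a mean of the cells' own CPM, *Xbp1* (-1.10) and *Herpud1* (-0.71) turned negative in airway secretory cells and *Calr* (0.021) positive in fibroblasts. For *Xbp1* and *Herpud1* that FF mean includes a cell of 848 UMIs at 1179 CPM, on a single UMI of each gene. Thinned to 1000 UMIs per cell, *Pdia4* (0.052) and *Calr* (0.088) turned positive in fibroblasts. *Atf4* stayed above 0 under these alternatives in AT2 cells (from 0.24), fibroblasts (from 0.10), and B cells (from 0.24). It did not in single classes of depth (-0.16 in fibroblasts with 5000 to 10000 UMIs). *Hspa5* stayed below 0 in fibroblasts under these alternatives (-0.30 to -0.10), but was at 0.51 in fibroblasts with 1000 to 2000 UMIs. In airway secretory cells the alternatives with 1000 to 5000 UMIs and with thinning gave fewer than 8 members a value and were not used. The number of members with an interval above 0 in AT2 cells was 1 to 3 over the alternatives, and with one below 0 in fibroblasts 0 to 6, with 0 among cells with 1000 to 5000 UMIs and 3 after thinning. The cause of these shifts was not tested.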
